A study of Mus musculus with 1203 samples.

Results

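Tuft cells of the mouse colon were compared according to whether they contained transcripts of Il25, the gene for interleukin 25. Of 1203 single-cell wells in the series, 1165 were used, and 727 of these had at least 1500 genes above 0 TPM (a share of each cell's RNA, normalised for transcript length and scaled to one fixed sum in every cell). A well counted as a tuft cell when it also held at least 50 TPM of Trpm5, the cation channel that opens when tuft cells sense a stimulus, and at least 100 TPM of Dclk1, a kinase used to mark these cells. This left 59.4% of the 727 wells, or 37.1% of the 1165, as tuft cells. The members were thus chosen by measured values, namely genes detected, Trpm5 and Dclk1, and they were divided by Il25 measured in the same cells. Cells above 5 TPM of Il25 are called Il25-expressing, and cells at 0 TPM are called Il25-negative. Plates that share a number in the sample titles are called a plate set. Plate sets 1 to 5 held 13, 12, 13, 12 and 18 Il25-expressing cells beside 35, 35, 53, 48 and 29 Il25-negative cells. The 4 plates of plate set 6 held 10, 16, 13 and 7 beside 21, 32, 31 and 27, and plate set 7 held 3 beside 4.

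Tuft cells are rare chemosensory cells of the gut lining. They are the main epithelial source of interleukin 25, which acts through a receptor containing IL17RB on group 2 innate lymphoid cells, and the interleukin 13 that these cells release drives the epithelium to make more tuft cells. Tuft cells also release leukotrienes and acetylcholine, and they read their surroundings through G protein-coupled receptors for bacterial and dietary metabolites, with Trpm5 at the end of the signalling chain.

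The cells came from colons of female mice aged 11 weeks. They were stained with antibodies to SIGLEC-F, found on tuft cells and eosinophils, and to EPCAM, found on epithelial cells. They were then sorted 1 per well into plates and profiled by a modified Smart-seq2, which copies whole polyadenylated transcripts. Mice were either wild type or conditional knockouts, in which Villin-Cre, active throughout the intestinal epithelium, acts on floxed alleles of Ipmk, the gene for inositol polyphosphate multikinase. The labels give wild type for plate sets 1, 3 and 6, with 62.7% of the tuft cells, and conditional knockout for plate sets 2, 4, 5 and 7. No plate set holds both genotypes, so plate set and genotype cannot be told apart. The labels name no animal. Each genotype is therefore 1 sample, and no p-value was computed. Errors are the SD between plate sets, which may be technical.

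Ipmk did not separate the labels in these cells. Its mean was 2.60 TPM in plate set 1, 1.70 TPM in plate set 3 and 1.495 TPM in plate set 6. The conditional knockout plate sets 2, 4, 5 and 7 stood at 5.46, 14.3, 2.54 and 1.67 TPM, where 1 cell carried most of the mean of plate set 4. Some Ipmk was present in 59 wild type cells (21.8%) and in 31 cells labelled conditional knockout (19.3%). TPM of the whole gene cannot single out the floxed part, and the genotypes below are those of the labels.

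The tuft label was read against marker genes. Of 33 core tuft genes that the TPM thresholds had not used, such as Matk, Cd24a and Krt18, all 33 reached 1 TPM. Among the 33 is Siglecf, whose protein was stained before the sort. That bar is low, as 12 of 19 colonocyte markers and 12 of 16 stem and progenitor markers reached it too. By level, the core tuft genes summed to 11374 TPM in Il25-expressing and 8509 TPM in Il25-negative cells, as means over plate sets. The colonocyte markers summed to 650.9 and 276.4 TPM. None of 19 lymphocyte markers and none of 14 macrophage and dendritic cell markers reached a mean of 1 TPM. Among 13 eosinophil and mast cell markers only Siglecf did, which tuft cells themselves express. Wells labelled tuft gave 95.8% of the cells. The other 18 were labelled epithelial, 17 of them wild type and 5 of those Il25-expressing.

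Read depth is unknown from TPM, so genes above 0 per cell stand in for it. Over the tuft cells the entry for 18S ribosomal RNA took 78.2% of all TPM on average, which compresses every other gene and makes 10 TPM a strict floor. In the plate sets compared below, the median number of genes detected was 2917 ± 326.8 in Il25-expressing and 2802 ± 425.7 in Il25-negative cells (SD, n = 6 plate sets).

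Il25 was found in a minority of colonic tuft cells. The gene is protein-coding, ENSMUSG00000040770, on the plus strand of chromosome 14 from 54932695 to 54935837 (GRCm38), with 3 exons. It was above 5 TPM in 27.1% of the tuft cells (exact 95% interval 22.9% to 31.5%, counting error only). The selection of Il25 fixed no share, so these values describe how often the gene was found.

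In the wild type plate sets 1, 3 and 6 the share was 27.1% (13 of 48 cells), 19.7% (13 of 66) and 29.3% (46 Il25-expressing cells). Plate sets 2, 4, 5 and 7, labelled conditional knockout, held 25.5% (12 of 47), 20% (12 of 60), 38.3% (18 of 47) and 42.9% (3 of 7). The last value rests on 7 cells and has an interval of 9.90% to 81.6%. The mean was 25.4% ± 5.03 (SD, n = 3) for wild type and 31.7% ± 10.7 (SD, n = 4) for conditional knockout. The difference of 6.31 percentage points was smaller than the larger SD, the 2 ranges overlapped, and without plate set 7 it was 2.58. Pooled over cells the shares were 26.6% and 27.95%.

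**Figure D1:**
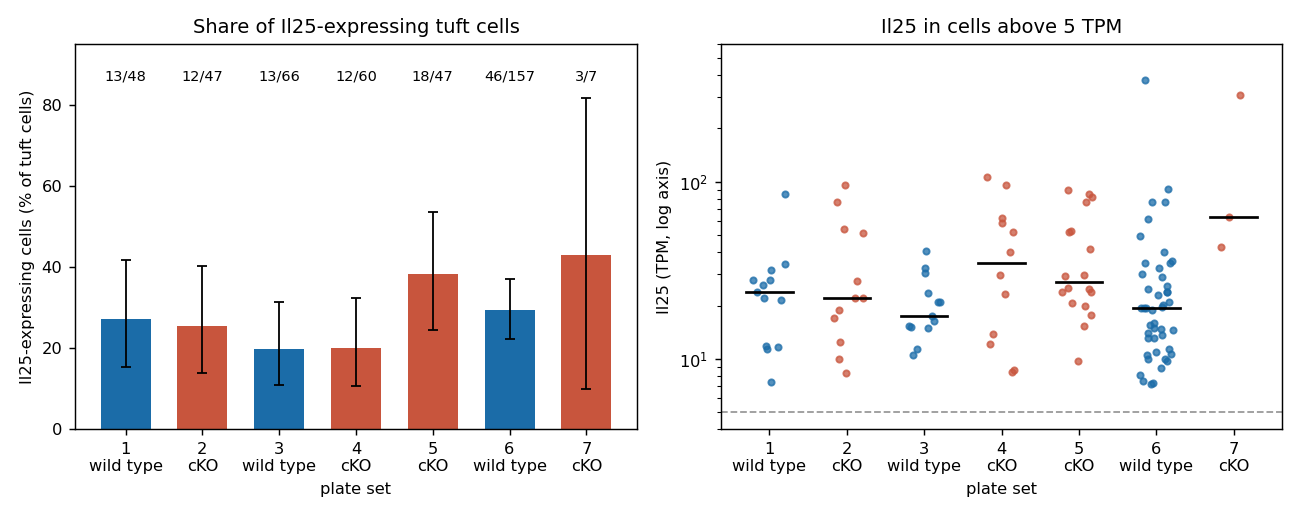
Left, the share of tuft cells above 5 TPM of Il25 in each plate set (percent of cells, bars from 0, with exact 95% binomial intervals and cell counts above); right, Il25 in each Il25-expressing cell (TPM, log axis), with the plate set's median as a black line and 5 TPM as a dashed line. Wild type is blue and conditional knockout (cKO) red; shares run from 19.7% to 42.9%, and no cell lies between 0 and 5 TPM.

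The division into cells with and without Il25 had no cells near its threshold. No tuft cell lay above 0 and at or below 5 TPM, and the lowest Il25-expressing cells held 7.25, 7.29 and 7.36 TPM. Among the Il25-expressing cells the median was 22.2 TPM, with quartiles of 13.96 and 35.6 TPM. The 3 highest cells reached 373.2, 309.7 and 106.01 TPM. Plate-set medians were 23.8, 17.5 and 19.3 TPM for plate sets 1, 3 and 6. For plate sets 2, 4, 5 and 7 they were 22.1, 34.9, 27.2 and 62.9 TPM. Over all cells of a label the median was 19.5 TPM in wild type and 29.2 TPM in conditional knockout cells. The ranges of the plate-set medians overlapped.

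The level of Il25 in a positive cell went with the number of genes detected in opposite directions under the 2 labels. When each plate set's positive cells were divided at their median of Il25, the upper cells had a median of 2887 ± 529.96 genes and the lower cells 2898 ± 437.9 (SD, n = 6 plate sets). In the wild type plate sets 1, 3 and 6 the upper cells had the higher medians, 3558.5, 3163.5 and 3313 genes against 3261, 2262 and 2850. The order was reversed in the conditional knockout plate sets 2, 4 and 5, at 2415.5, 2615.5 and 2255 against 3253.5, 3262.5 and 2497. With 6 to 23 cells in each part, this split was not tested.

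Outside the tuft thresholds Il25 was rare, in 13 wells above 5 TPM. Of the wells with at least 1500 genes that failed the Trpm5 or Dclk1 threshold, 3 had Il25 above 5 TPM (1.02%, exact interval 0.210% to 2.94%). None of the wells at 0 TPM of both Trpm5 and Dclk1 did, which allows a share of up to 1.64% when a count of 0 is read as at most 3 wells, and of 1.996% by the exact interval. Those wells had a median of 3570 genes, more than the 2792 of the tuft cells. Below 1500 genes, 10 wells (2.28%) were above 5 TPM of Il25.

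The thresholds themselves kept out few Il25-expressing cells. The cells nearest the limits had 1509 and 1495 genes, 52.5 and 44.6 TPM of Trpm5, and 101.48 and 95.6 TPM of Dclk1, the first of each pair inside and the second outside. Genes detected alone kept out 100 wells, 7 of them with Il25. Trpm5 alone kept out 8 wells, none with Il25, and Dclk1 alone 34 wells, 1 of them with Il25.

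Il25 was found more often in cells in which more genes were detected. With the cells of each plate set ranked by genes detected, 19.7% of the bottom tertile (28 cells), 28.5% of the middle tertile (41 cells) and 32.9% of the top tertile (48 cells) were Il25-expressing. The exact intervals of the bottom and the top tertile were 13.5% to 27.2% and 25.3% to 41.1%, and they overlapped. An Il25 value of 0 in a cell with few genes detected can therefore not be told apart from an undetected transcript.

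Within plate sets the direction of this gap varied. Median genes detected were 3261 in Il25-expressing and 2680 in Il25-negative cells of plate set 1, 3177.5 and 2652 in plate set 6, 2929 and 2517 in plate set 4, and 2376 and 2337 in plate set 5. The order was the other way in plate set 3, at 3041 and 3161, and in plate set 2, at 2718 and 3467. The mean difference was 114.8 ± 506 genes (SD, n = 6), well inside its spread. Each Il25-expressing cell was therefore also paired with the Il25-negative cell of its plate set nearest in genes detected, which brought the difference to 39.6 ± 68.4 genes. Values against these paired cells are given below as matched. The 18S entry took 77.98% and 77.8% of TPM in the 2 groups. Mitochondrial genes took 2.23% in Il25-expressing and 2.65% in Il25-negative cells, lower in 5 of 6 plate sets.

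**Figure D2:**
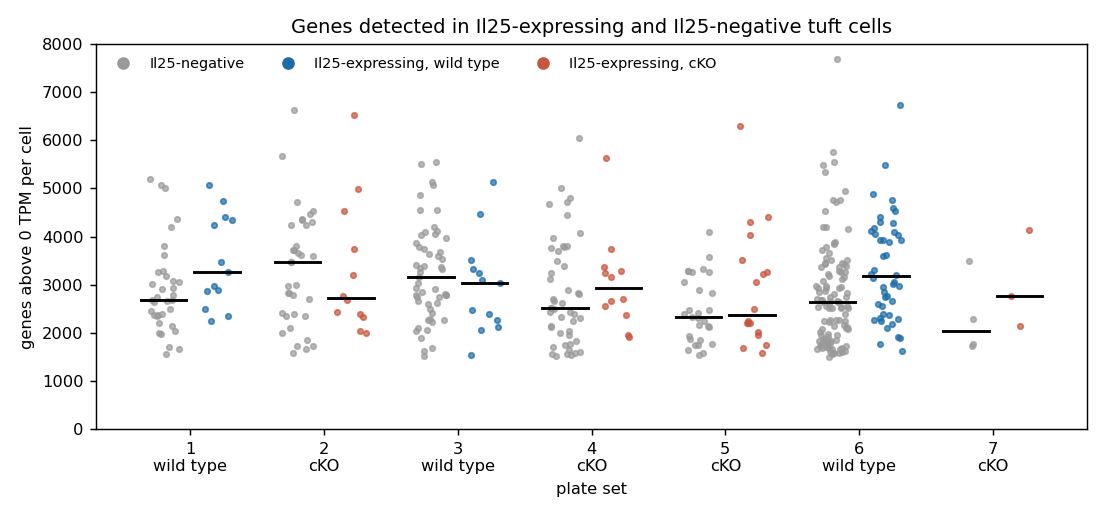
Genes above 0 TPM in each tuft cell, by plate set, for Il25-negative cells (grey) and Il25-expressing cells (blue, wild type; red, conditional knockout, cKO), with medians as black lines. The median is higher in Il25-expressing cells in plate sets 1, 4, 5 and 6 and lower in plate sets 2 and 3.

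To ask what else differs in tuft cells that carry Il25, mean TPM was compared between the groups inside each plate set. A difference is the log2 of mean TPM plus 1 in Il25-expressing cells minus that in Il25-negative cells, averaged with equal weight over plate sets 1 to 6. Plate set 7, with 3 cells against 4, was left out. Trpm5 and Dclk1, which chose the cells, differed by 0.06 ± 0.13 and 0.10 ± 0.21 (SD, n = 6). Trpm5 averaged 282.4, 268.4 and 211.4 TPM in Il25-expressing cells of plate sets 1, 3 and 6, against 278.8, 264.2 and 200.7 TPM. Dclk1 averaged 828.97, 505.05 and 564.98 TPM there, against 671.3, 489.5 and 481.9 TPM. Conditional knockout plate sets 2, 4 and 5 held 201.2, 356.6 and 313.5 TPM of Trpm5, against 221.5, 295.1 and 289.1 TPM. Of Dclk1 they held 479.4, 699.7 and 586.2 TPM, against 503.01, 572.4 and 676.2 TPM.

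Few genes differed by size. Of 2442 genes that reached 10 TPM in a group, 9 (0.369%) were at least 2-fold higher in Il25-expressing cells with the same sign in all 6 plate sets, and 25 (1.02%) were at least 2-fold lower. The median difference over the 2442 genes was −0.03. Both counts depend on every plate set pointing one way: without plate set 2 or 3 the higher count was 33 or 19, and without plate set 3, 5 or 6 the lower count was 40, 58 or 58. Against matched cells the counts were 19 and 30, of which 4 and 5 were among the 9 and 25. With plate set 7 included they were 14 and 5, of which 3 and 2 were among the 9 and 25.

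P2rx1, one of the higher genes, encodes an ATP-gated cation channel. It averaged 19.1, 16.4 and 11.98 TPM in Il25-expressing cells of the wild type plate sets 1, 3 and 6, against 4.74, 10.7 and 5.29 TPM in Il25-negative cells. Conditional knockout plate sets 2, 4 and 5 averaged 8.98, 26.1 and 12.1 TPM, against 4.04, 7.25 and 5.90 TPM. It was higher within every plate set, which was a condition of being counted. The lowest Il25-expressing mean lies below the highest Il25-negative mean of another plate set. P2rx1 was found in 58.97% of Il25-expressing and 33.97% of Il25-negative cells, and in 38.5% of matched cells. The difference was 1.17 ± 0.48 (SD, n = 6), 1.05 against matched cells, 1.14 in wild type and 1.21 in conditional knockout plate sets. In plate set 7 P2rx1 was listed at 0 in the 3 Il25-expressing cells and averaged 4.30 TPM in the 4 others. P2rx1 lies on the plus strand of chromosome 11 from 72999103 to 73015200.

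C2, a serine protease of the classical complement pathway, followed the same pattern. Il25-expressing cells of plate sets 1, 3 and 6 averaged 18.02, 14.1 and 7.09 TPM, against 6.09, 6.597 and 3.12 TPM. The means of plate sets 2, 4 and 5 were 12.3, 10.4 and 15.8 TPM, against 8.26, 3.29 and 7.86 TPM. C2 was found in 47.01% of Il25-expressing, 28.3% of Il25-negative and 34.2% of matched cells, with a difference of 1.04 ± 0.34 and of 1.47 against matched cells.

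Crlf2 encodes the receptor chain that binds TSLP, an epithelial cytokine of type 2 immunity. Its means were 18.3, 11.3 and 3.71 TPM in Il25-expressing cells of plate sets 1, 3 and 6, against 9.08, 3.92 and 3.19 TPM. For plate sets 2, 4 and 5 they were 9.18, 11.4 and 19.4 TPM, against 1.88, 4.72 and 7.77 TPM. Plate set 6, the one with the most cells, showed the smallest difference, 0.17, beside 1.82 in plate set 2. The mean was 1.10 ± 0.54. Against matched cells it was 0.72, with Crlf2 higher in 4 plate sets and lower in 2. Crlf2 was found in 30.8% of Il25-expressing, 16.2% of Il25-negative and 21.4% of matched cells. Tslp itself was at 0 in all Il25-expressing cells and present in 0.317% of Il25-negative cells.

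The other named higher genes varied in how evenly they were supported. Dok1, an adaptor docked to tyrosine kinases, had the largest difference, 1.68 ± 1.88, but it was found in 8.55% of Il25-expressing and 3.81% of Il25-negative cells, and a single cell at 629.9 TPM set its mean in plate set 3. Ccnt1, the cyclin of the elongation factor P-TEFb, differed by 1.18 ± 0.82, Dbndd2 by 1.12 ± 0.66, Agfg2 by 1.04 ± 0.49 and Phospho1, a phosphatase of phosphocholine, by 1.02 ± 0.43. Against matched cells Dbndd2 stood at 2.02 and Agfg2 at 1.69, each higher in all 6 plate sets. Matched differences were 0.61 for Phospho1 (higher in 5 plate sets), 0.93 for Ccnt1 (in 4) and 1.63 for Dok1 (in 5). Hspa14 also met the rule of size at 1.02, but its matched difference was 0.41. All 9 genes were found in a larger share of Il25-expressing cells, beside 77.4% of the 2442 genes. When the mean was taken over cells of log2(TPM + 1), which weighs single high cells less, 3 of the 9 stayed past 2-fold, P2rx1 at 1.23, Hspa14 at 1.20 and C2 at 1.10. Crlf2 stood at 0.91 on that scale, and Dok1, Ccnt1 and Agfg2 at 0.31 each.

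**Figure D3:**
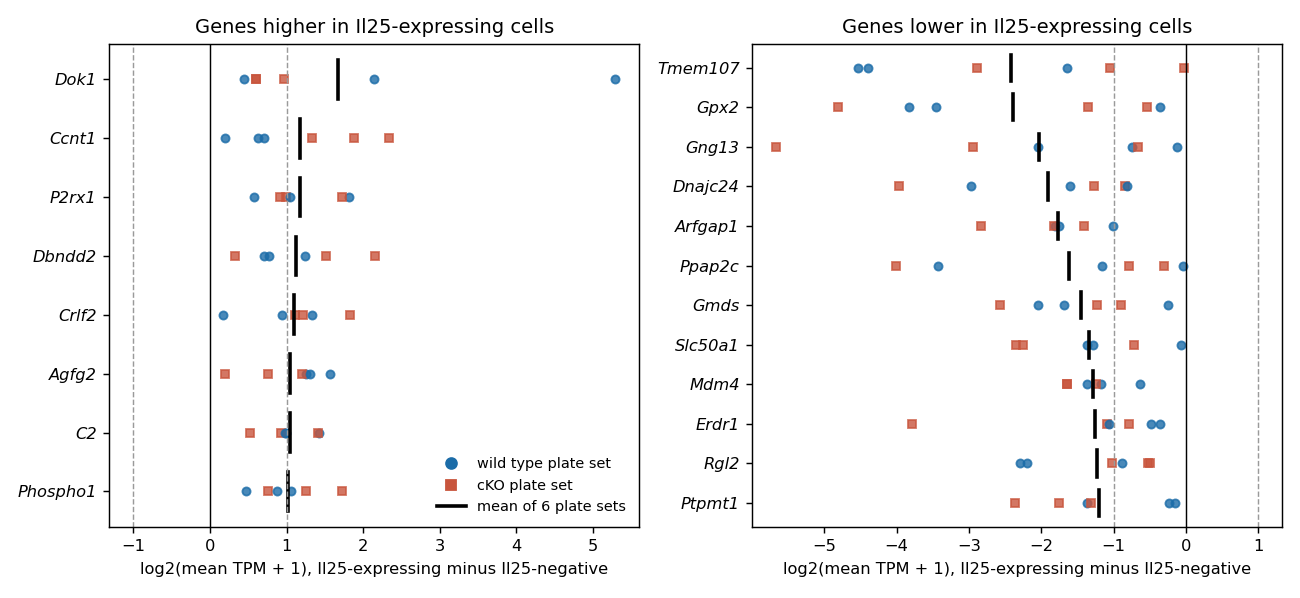
Difference in log2(mean TPM + 1) between Il25-expressing and Il25-negative cells for the 8 higher (left) and 12 lower (right) named genes; each point is a plate set (blue circles, wild type; red squares, conditional knockout, cKO), black bars are means of 6 plate sets, and dashed lines mark a 2-fold difference. P2rx1, Crlf2 and C2 have means of 1.17, 1.10 and 1.04, while points of the lower genes spread as far as −5.66 for Gng13.

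The lower genes differed more in mean level than in how many cells held them. Of the 25, 9 have symbols of pseudogenes or predicted genes, or symbols ending in Rik. Reads of pseudogenes can be shared with near-identical copies. The median share of cells in which the 25 were found was 22.2% in Il25-expressing and 25.1% in Il25-negative cells. None of the 25 stayed past 2-fold with the mean of logs over cells, although all 25 kept their sign. Fermt1, at −2.64, had a matched difference of 0.16.

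Mdm4, an inhibitor of p53 found in most cells, had the smallest spread between plate sets of the 12 named lower genes. It averaged 11.8, 4.71 and 8.75 TPM in Il25-expressing cells of plate sets 1, 3 and 6, against 27.9, 13.7 and 14.2 TPM. Means of plate sets 2, 4 and 5 were 4.16, 4.30 and 5.39 TPM, against 15.2, 15.6 and 14.2 TPM. The 2 groups did not overlap over the 6 plate sets. The difference was −1.29 ± 0.37, and −1.29 against matched cells, while shares of cells with Mdm4 were 58.1% and 66.03%. In plate set 7, left out of the means, Mdm4 averaged 101.1 TPM in 3 Il25-expressing cells and 2.40 TPM in 4 Il25-negative cells.

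Arfgap1, which switches off the vesicle-coat regulator ARF1, also did not overlap: its means ran from 1.24 to 4.53 TPM in Il25-expressing and from 6.77 to 18.4 TPM in Il25-negative cells. The difference was −1.77 ± 0.61, with the gene found in 25.6% and 35.2% of cells. Gpx2, a glutathione peroxidase of the gut epithelium, was listed at 0 in Il25-expressing cells of plate sets 1 and 4 and reached 8.90 TPM in plate set 6. Its means in Il25-negative cells ran from 7.40 to 35.4 TPM. Gpx2 was found in 8.55% of Il25-expressing, 17.8% of Il25-negative and 17.1% of matched cells, and the difference of −2.39 had an SD of 1.88.

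Gng13, the G protein gamma subunit of the taste cascade, differed by −2.03 ± 2.06 although it was found in 8.55% of Il25-expressing and 7.62% of Il25-negative cells. A single Il25-negative cell held 1126 TPM. Tmem107, a protein of the ciliary transition zone, differed by −2.42 ± 1.83, and Il25-negative cells reached 1297 TPM in a single cell. Slc50a1, a sugar transporter, differed by −1.34 ± 0.88, Gmds, an enzyme of GDP-fucose synthesis, by −1.45 ± 0.83, and Rgl2, which activates the small GTPase Ral, by −1.24 ± 0.81. Dnajc24 (−1.91), Ppap2c (−1.62), Erdr1 (−1.26) and Ptpmt1 (−1.20) completed the 12 named.

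Genes that define tuft cells were moderately higher in Il25-expressing cells. Of the 33 core tuft genes, 30 were higher on average and 3 lower. Of these, 7 were higher in all 6 plate sets (Cd24a, Ethe1, Krt23, Matk, Cd300lf, Siglecf and Kctd12) and none was lower in all 6. Over all 9715 genes that reached 1 TPM, 1.41% were higher and 3.32% lower in all 6 plate sets; at 10 TPM the shares were 3.24% and 2.78%. Higher on average were 39.1% of the 9715 genes, 47.6% of genes that reached 10 TPM and 52.95% of those that reached 50 TPM. The list's median difference was 0.34, and 0.31 against matched cells, beside −0.12 and −0.03 for the 9715 genes and 0.04 for genes that reached 50 TPM. No core tuft gene met the 2-fold rule. The median was above 0 in 5 of 6 plate sets, −0.11 being its lowest.

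Cd24a, a surface glycoprotein abundant in tuft cells, averaged 979, 768 and 772 TPM in Il25-expressing cells of plate sets 1, 3 and 6, against 744, 535.5 and 335.7 TPM. Among plate sets 2, 4 and 5 the means were 686, 1057 and 1093 TPM, against 629, 579.3 and 643 TPM. The difference was 0.65 ± 0.38 and 0.53 against matched cells. Krt23, a keratin, differed by 0.62 ± 0.39, Matk, a kinase that restrains Src-family kinases, by 0.57 ± 0.31, and Cd300lf, a phospholipid receptor, by 0.55 ± 0.32. Siglecf, whose protein was stained before the sort, averaged 97, 93.7 and 75.9 TPM against 91.9, 87.4 and 40.01 TPM in plate sets 1, 3 and 6. In plate sets 2, 4 and 5 it averaged 75.7, 93.6 and 138.06 TPM against 45.8, 49.5 and 98.8 TPM. Its difference was 0.53 ± 0.38, small in plate sets 1 and 3 and up to 0.91 in plate set 4. Avil, an actin-binding protein of the tuft cell apex, was the lowest of the core genes at −0.30 ± 0.54.

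Genes linked to an immune-type tuft cell state stood similarly. Of 24 measured members, 11 of which do not belong to the core list, 21 were higher on average, 6 of them in all 6 plate sets (Matk, Rac2, Siglecf, Cd300lf, Trim38 and Rhog) and none lower in all 6. The list's median was 0.39, or 0.41 against matched cells, and it was 0.37 in wild type and 0.41 in conditional knockout plate sets. Trim38, a ubiquitin ligase of innate immune signalling, averaged 20.6, 14.4 and 20.5 TPM in plate sets 1, 3 and 6 against 19.4, 11.7 and 7.68 TPM. In plate sets 2, 4 and 5 it averaged 27.6, 21.5 and 33.8 TPM against 14.4, 9.73 and 16.96 TPM. Trim38 was found in 61.5% of Il25-expressing and 39.05% of Il25-negative cells, with a difference of 0.76 ± 0.48. Rac2 (0.43 ± 0.28) and Rhog (0.60 ± 0.53) encode small GTPases. Irf7, which drives interferon production, differed by 0.56 ± 1.07, and Ptprc, the leukocyte phosphatase CD45, by −0.04 ± 1.04.

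By contrast the 13 measured genes of a neuronal-type tuft state had a median of −0.13, near that of all genes. Of these, 3 were lower in all 6 plate sets: Gng13, Nradd and Plekhg5. Nradd, a death domain protein related to neurotrophin receptors, averaged 0.951 TPM in Il25-expressing and 4.92 TPM in Il25-negative cells (−1.44 ± 0.71), below the 10 TPM floor in both. Plekhg5 differed by −0.84 ± 0.61.

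**Figure D4:**
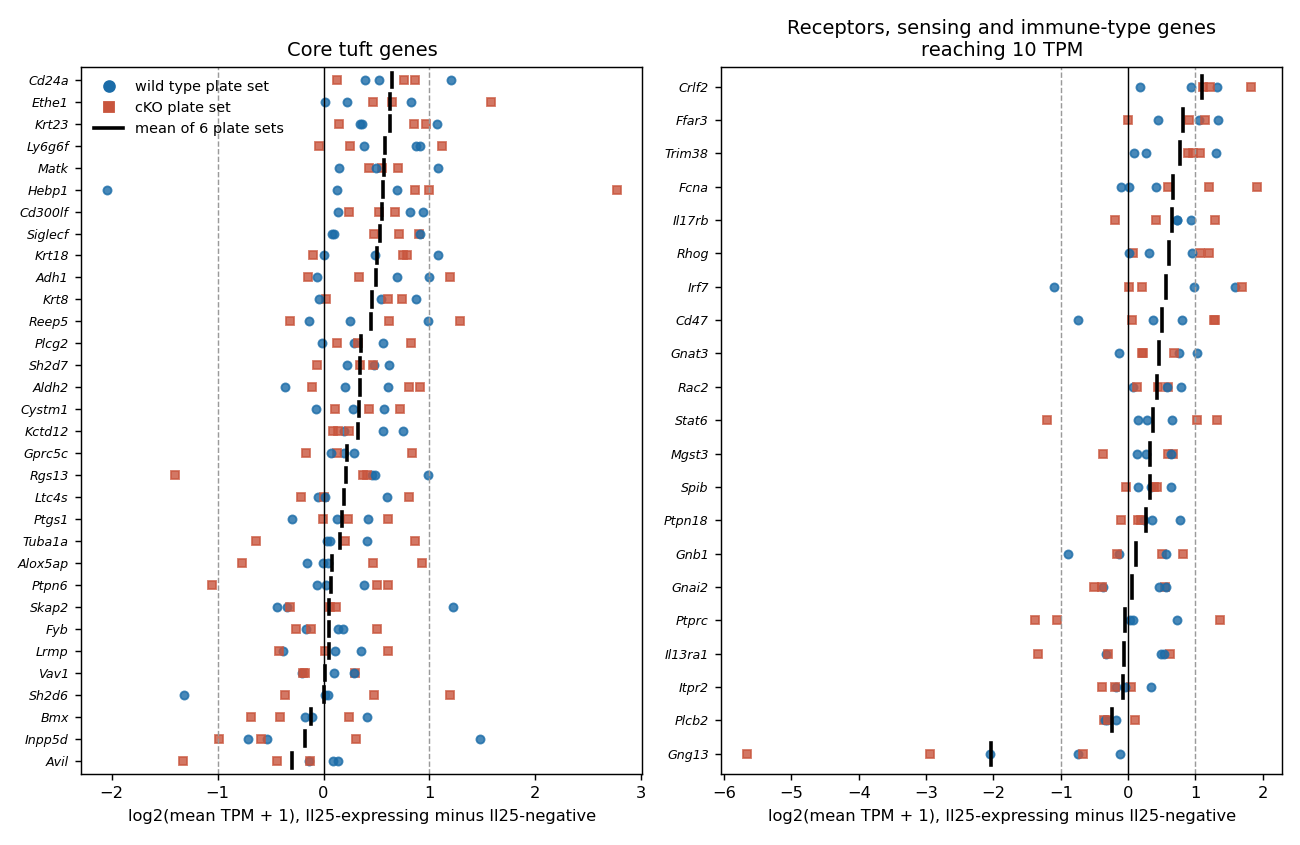
Difference in log2(mean TPM + 1) between Il25-expressing and Il25-negative cells for 32 of the core tuft genes (left) and for further receptor, sensing and immune-type genes that reached 10 TPM (right); points are plate sets (blue circles, wild type; red squares, conditional knockout, cKO), black bars are means of 6 plate sets, and dashed lines mark a 2-fold difference. The means of the core genes drawn run from −0.30 for Avil to 0.65 for Cd24a, and 3 of them lie below 0.

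Receptors of the circuit in which interleukin 25 acts were also read. Il17rb, a subunit of the interleukin 25 receptor that tuft cells themselves express, averaged 42.2, 36.2 and 24.3 TPM in Il25-expressing cells of plate sets 1, 3 and 6, against 25.2, 18.4 and 14.4 TPM. In plate sets 2, 4 and 5 it averaged 26.1, 43.1 and 21.7 TPM, against 19.2, 17.05 and 25.1 TPM. It was higher in 5 of 6 plate sets and lower in plate set 5, with a difference of 0.65 ± 0.51 and 0.86 against matched cells. Il17rb was found in 87.2% of Il25-expressing, 77.1% of Il25-negative and 81.2% of matched cells. Il4ra, the shared receptor chain of interleukins 4 and 13, was higher in all 6 plate sets at a low level (5.77 against 4.24 TPM, difference 0.36 ± 0.30). Il13ra1, its partner for interleukin 13, differed by −0.06 ± 0.76. Of the 8 members of this type 2 list that reached 1 TPM, 6 were higher and 2 lower on average, and the median was 0.30. Il4 was listed at 0 in both groups.

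Among sensors, Ffar3, a receptor for short-chain fatty acids made by gut bacteria, stood highest. It averaged 70.2, 47.8 and 43.3 TPM in Il25-expressing cells of plate sets 1, 3 and 6, against 33.4, 34.7 and 16.6 TPM. In plate sets 2, 4 and 5 it averaged 39.9, 74.7 and 73.6 TPM, against 39.9, 39.5 and 32.7 TPM. Ffar3 was marginally lower in plate set 2 (39.87 against 39.94 TPM) and higher in the other 5. Ffar3 was found in 89.7% of Il25-expressing, 72.1% of Il25-negative and 71.8% of matched cells, with a difference of 0.81 ± 0.50 and the same 0.81 against matched cells. Sucnr1, the succinate receptor that triggers interleukin 25 release in the small intestine, was low in both groups, at 4.52 and 1.75 TPM, and present in 18.8% and 10.2% of cells (0.56 ± 1.82). Gnat3, the taste G protein gustducin, differed by 0.46 ± 0.43, while Plcb2, the phospholipase upstream of Trpm5, differed by −0.23 ± 0.18. The 11 measured members of the sensing list had a median of 0.05.

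Genes for the other tuft cell effectors gave medians on both sides of 0. Chat, which makes acetylcholine, averaged 18.2 and 16.9 TPM, with a difference of 0.12 ± 0.27. Alox5, which starts leukotriene synthesis, averaged 102.8 and 81.1 TPM (0.35 ± 0.26, higher in 5 of 6 plate sets), and Ltc4s, which completes leukotriene C4, averaged 199.4 and 168.9 TPM (0.19 ± 0.41). The 11 measured genes of eicosanoid synthesis had a median of 0.08. The 5 measured genes of acetylcholine handling had a median of −0.41, with 2 of them lower in all 6 plate sets. These were Chka, a choline kinase, at −0.41 ± 0.49, and Slc44a2, a choline transporter, at −0.59 ± 0.25.

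Transcription factors of the tuft lineage had a median near 0. Pou2f3, the master regulator of tuft cells, averaged 20.4 and 21.4 TPM, higher in 3 plate sets and lower in 3 (−0.08 ± 0.48). Gfi1b, a repressor found in tuft cells, was present in 58.1% of Il25-expressing, 39.4% of Il25-negative and 35.0% of matched cells. Its difference of 0.46 ± 1.03 came from plate sets 5 and 6, at 1.83 and 1.65, and was 0.78 against matched cells. Spib, a factor needed for some epithelial and immune lineages, averaged 56.9 and 45.6 TPM (0.32 ± 0.23, higher in 5 of 6 plate sets). The 13 measured factors had a median of −0.08. Ipmk differed by −0.55 ± 1.32, higher in 3 plate sets and lower in 3, and the 10 measured inositol phosphate kinases and phosphatases had a median of −0.15.

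Of the signalling lists, genes of NF-kB and calcium signalling had a median of 0.15 over 14 members. Nfkbia, an inhibitor of NF-kB that the pathway itself induces, was higher in all 6 plate sets (25.8 against 16.5 TPM, 0.67 ± 0.58), though by 0.02 in plate set 4. Tnfaip3, a brake on the same pathway, differed by −0.09 ± 0.53 in mean and was found in 53.8% of Il25-expressing, 35.6% of Il25-negative and 35.9% of matched cells. The interferon list of 17 members had a median of 0.04, and of 0.41 against matched cells. Its median was −0.12 in wild type and 0.46 in conditional knockout plate sets. All 17 were found in a larger share of Il25-expressing cells, beside 68.5% of the 9715 genes. Among them was Isg15, a ubiquitin-like protein induced by interferon, higher in all 6 plate sets at 8.40 against 3.11 TPM (1.05 ± 0.42), below the 10 TPM floor.

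Lists for growth and protein synthesis had lower medians. Of all 9715 genes that reached 1 TPM, only 39.1% were higher on average. All 21 ribosomal protein genes were lower on average (median −0.42, and −0.52 against matched cells). Their median was above 0 in 2 of 6 plate sets, and it was −0.23 with the mean of logs. By detection, 16 of the 21 were found in a larger share of Il25-expressing cells, beside 68.5% of the 9715 genes and 77.4% of genes that reached 10 TPM. Against matched cells 7 of the 21 were, beside 51.98% and 56.7%. Only Rps18 was lower in all 6 plate sets, at 132.4 against 217.2 TPM. Ribosomal protein genes have many near-identical pseudogenes, among which reads can be shared. The 17 measured cell cycle genes had a median of −0.79, with 16 lower on average, and most were in few cells. Top2a, a topoisomerase of dividing cells, was found in 4.27% and 6.03% of the cells of the 2 groups. Cdk6, which starts the cell cycle, was lower in all 6 plate sets (2.38 against 9.97 TPM, −1.49 ± 0.89). The cell cycle median was −0.51 against matched cells and −0.10 with the mean of logs. Against matched cells without the highest cell of each group and plate set it was −0.15. For stem and progenitor markers the median was −0.39, with 11 of 12 measured lower on average. It was −0.05 with the mean of logs. Of the 12, 7 were found in a larger share of Il25-expressing than Il25-negative cells, and 5 in a larger share than of matched cells. Rnf43, which dampens Wnt signalling in crypt cells, was lower in all 6 plate sets (−0.96 ± 0.52) and found in 25.6% of Il25-expressing, 37.5% of Il25-negative and 42.7% of matched cells. Lgr5, the receptor that marks crypt stem cells, averaged 16.5 and 29.2 TPM (−1.09 ± 1.33), lower in 3 plate sets and at most 0.13 higher in the other 3.

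**Figure D5:**
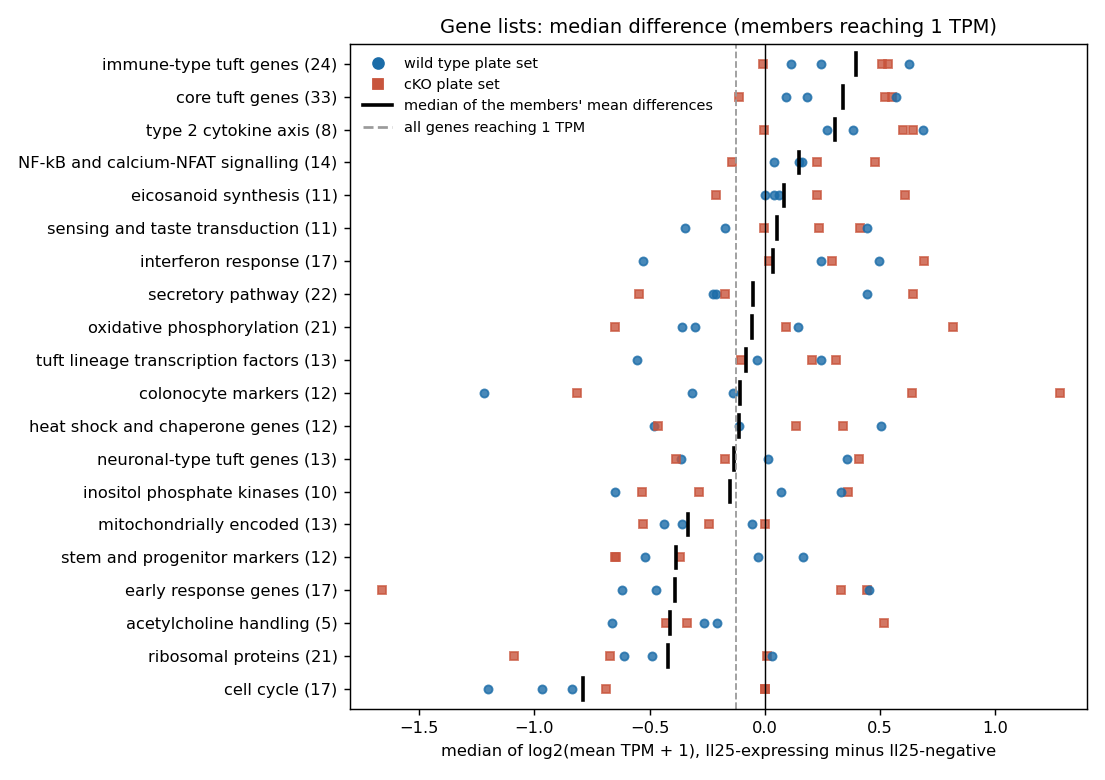
Median difference in log2(mean TPM + 1) between Il25-expressing and Il25-negative cells for each gene list with at least 5 members reaching 1 TPM (number in brackets); points are medians within a plate set (blue circles, wild type; red squares, conditional knockout, cKO), black bars are medians of the members' mean differences, and the dashed line is the median of all genes reaching 1 TPM, −0.12. Immune-type (0.39) and core (0.34) tuft genes stand at the top, and ribosomal proteins (−0.42) and cell cycle genes (−0.79) at the bottom.

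Markers of other epithelial cells are given beside these lists, and their part in the differences was not tested. The 19 colonocyte markers summed to between 117.8 and 2308 TPM in Il25-expressing and between 122.4 and 391.99 TPM in Il25-negative cells, by plate set. Their median difference was −0.11 with an SD of 0.92 between plate sets. Car1, carbonic anhydrase of surface colonocytes, averaged 1691 TPM in Il25-expressing cells of plate set 5, where a single cell held 30381 TPM. The 14 goblet markers summed to at most 10.9 and 17.2 TPM in the 2 groups, with 4 of them at 0 in all tuft cells. Of 15 enteroendocrine markers 12 were at 0 in all tuft cells. The exception in level was Sct, the hormone secretin, at 56.1 against 31.4 TPM, higher in all 6 plate sets (0.84 ± 0.68). Sct was found in 41.9% of Il25-expressing, 24.8% of Il25-negative and 28.2% of matched cells.

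Wild type and conditional knockout plate sets gave similar medians for the 3 lists with the highest medians among those with at least 5 members reaching 1 TPM: 0.26 and 0.42 for core tuft genes, 0.37 and 0.41 for immune-type genes, and 0.40 and 0.34 for the type 2 list. Those lists were picked by their medians over both labels. Other lists lay on opposite sides of 0, among them colonocyte markers at −0.58 and 0.48 and the interferon list at −0.12 and 0.46. Genes named by the rule of size had the same sign in every plate set compared, so their sign could not differ by label. None of the genes set by name was higher in all 3 wild type and lower in all 3 conditional knockout plate sets. The reverse was not seen among them either. With 1 sample per genotype these differences were not tested.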

How the data were processed

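The authors deposited 1 table of TPM for 46517 mouse genes and 92 spike-in entries, the latter at 0 throughout; every non-empty column sums to about 1000000. Bowtie2 2.4.2, RSEM 1.3.3 and build mm10 are named in the submitters' processing notes; the annotation release, strand handling and read depth were not given in the sources used here. By a model, RSEM estimates how reads split between near-identical transcripts, which makes pseudogenes and close paralogs uncertain. Columns were joined to samples by title. One plate of plate set 7 was almost empty, and its 38 columns were left out. Of the gene IDs, 98.9% were found in GENCODE M21 (GRCm38), the source of the coordinates.

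Tuft cells were selected and divided as described above. Within each plate set with at least 5 cells of each kind, log2(mean TPM + 1) was compared, and plate sets were weighted equally. Adding 1 TPM understates differences of low genes. The rule of size required 10 TPM in a group, a difference of at least 1 and 1 sign in all 6 plate sets; Il25, Trpm5 and Dclk1 were left out. Named are up to 12 genes each way that met it and whose matched difference had the same sign and at least 0.58. Also named are 14 genes set by name, of which Tslp is one, and members of 25 gene lists as examples of their list. Symbols of predicted genes and pseudogenes and symbols ending in Rik, as written in the deposited table, were counted only. GENCODE M21 gives the ID of Erdr1 the symbol Gm47283 and places it on chromosome Y. Hspa14, Fermt1 and the list members described in the report were named after their values were seen. The division, the members and the lists were chosen with earlier results of these data known. Intervals are exact Clopper-Pearson intervals. No doublet caller was run. No 2 selected cells had identical values. The contrast was tested on simulated data. Python 3.11.15, numpy 2.4.6, pandas 2.3.3, scipy 1.17.1 and matplotlib 3.10.9 were used. A core tuft gene counted in its lists is not reported here by name.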

Additional observations from a re-analysis of the deposited data

Results flagged for a closer look

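Among 57 sets of plate-set values searched for a value far from the rest, 3 held one; chance alone marks about 1 in 20 such sets. The Dok1 difference in plate set 3 was 5.29, with 2.14 as the next highest, and a single cell at 629.9 TPM lay behind it. The Erdr1 difference in plate set 4 was −3.79, with −1.09 as the next lowest. The Tslp difference in plate set 2 was −0.63, with 0 in the other plate sets, since the gene was found in 1 Il25-negative cell and in no Il25-expressing cell. Il25 also appeared outside the tuft cells compared, in 1.02% of wells with at least 1500 genes that failed a tuft threshold, against none of the wells with neither Trpm5 nor Dclk1. All 13 wells outside the selection with Il25 above 5 TPM were labelled tuft, 10 of them had under 1500 genes, and the highest held 603.1 TPM. Among Il25-expressing cells, those above the median of Il25 in their plate set had a higher median of genes detected than the rest in all 3 wild type plate sets and a lower one in all 3 conditional knockout plate sets. The mean gap in median genes detected lay 1129.7 genes higher in wild type than in conditional knockout plate sets, and this difference was not tested.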

How the results depend on the processing

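The share of Il25-expressing cells was 15.5% with a threshold of 20 TPM. Genes higher in Il25-expressing cells (9, or 0.369% of genes tested, as reported) came to 17 (0.724%) and 14 (0.481%) with minimums of 1000 and 2500 genes per cell, 15 (0.593%) with Il25 above 20 TPM, 19 (0.747%) against matched cells, 34 (1.39%) with the mean of logs over cells, 0 with a pseudocount of 10 TPM, 14 with a level filter of 1 TPM (0.144%) or none (0.0704%), 34 (0.362%) after rescaling without the most abundant and mitochondrial genes, and 14 (0.565%) with plate set 7 included. Genes lower (25, or 1.02%, as reported) came to 60 (2.37%) with Il25 above 20 TPM, 0 with the mean of logs, 4 (0.164%) with a pseudocount of 10 TPM, 120 with a level filter of 1 TPM (1.24%) or none (0.604%), 3.16% after rescaling, which lets more genes reach 10 TPM, and 5 (0.202%) with plate set 7 included. Leaving out 1 plate set gave 8 to 33 genes higher (0.328% to 1.302%) and 31 to 58 lower (1.22% to 2.38%). Wild type plate sets alone gave 2.21% higher and 4.18% lower, and conditional knockout plate sets alone 3.33% and 5.83%; fewer plate sets make the condition of 1 sign in all of them easier to meet. An alternative chosen after seeing the data, matched cells without the highest cell of each group and plate set, gave 15 and 15 (0.978% each), and turned Tmem107 to 0.22. Over these alternatives Dok1 ran from 0.25 to 2.62, Gng13 from −3.11 to −0.20 and Gpx2 from −3.29 to −0.76. The medians of core tuft genes (0.24 to 0.59) and immune-type tuft genes (0.29 to 0.65) kept their sign in all 20 alternatives, as did those of ribosomal proteins (−0.59 to −0.07) and the cell cycle (−1.70 to −0.10). No paired analysis was possible because the labels pair no wild type plate or animal with a conditional knockout one; Il25-expressing and Il25-negative cells were compared within plate sets throughout. The number of cells per plate set, 12 to 46 Il25-expressing, and the unknown read depth limit what could be seen.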
